A study of Homo sapiens with 24 samples.

Results

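The cytoplasmic ribosomal protein genes encode the proteins of the 80S ribosome, which translates nuclear-encoded mRNAs. They were taken here as the gene symbols of the RPL and RPS series, with RPLP0, RPLP1, RPLP2 and RPSA and without S6 kinase genes and pseudogenes, whose mean level was at least 10 CPM (counts scaled to the library total) over all libraries. Of the 26364 genes in the count tables, 80 symbols matched and 73 of these passed the minimum, 44 of the large subunit and 29 of the small subunit. RNA was sequenced from T-47D, an established ER-positive luminal breast cancer cell line, in clones that were WT at ESR1 or carried the Y537S or D538G mutation heterozygously at the endogenous gene. Each genotype was represented by 2 clones (D1 and D4 for WT, clone 1 and clone 2 for Y537S, A5 and C2 for D538G), with 1 library per clone in each of 12 conditions, giving 24 libraries. All cells were kept in hormone-deprived medium and transfected for 24 h at 10 nM with a miRNA mimic, a synthetic RNA that adds a miRNA's activity, or an inhibitor, an oligonucleotide that blocks it.

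WT cells received the mimic negative control or a mimic, which was miR-181c-5p, miR-301b-3p or miR-331-3p (8 libraries). Y537S cells received the mimic negative control, the miR-301b-3p or miR-331-3p mimic, the inhibitor negative control or the let-7f-5p inhibitor (10 libraries). D538G cells received the mimic negative control or a mimic of miR-181c-5p or miR-301b-3p (6 libraries). Within a genotype, every mimic was compared with the same control libraries. The duplicates were clones, so p-values measure the spread between 2 clonal lines, and an exact two-sided permutation test of 2 against 2 libraries could not go below 0.333. Mature miRNAs are not recovered by poly-A selection and were not measured in these libraries.

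Each ribosome holds 1 copy of nearly every ribosomal protein, and the cell makes the large and small subunit proteins in matched amounts. Most of their mRNAs begin with a C followed by a run of pyrimidines, the 5′ terminal oligopyrimidine (TOP) tract, through which mTORC1 signalling and the protein LARP1 set their translation. In breast cancer cells ribosome production is tied to growth, and MYC is a known activator of ribosomal protein and ribosome biogenesis genes. RPL5 and RPL11 also act outside the ribosome, where they bind MDM2 and stabilise p53.

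The mature miRNAs are shown because their seed, bases 2 to 8 and in capitals here, defines the sites they can pair with. No seed was shared between them. The sequences are from RefSeq (GRCh38.p14).
hsa-miR-301b-3p: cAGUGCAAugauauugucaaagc
hsa-miR-331-3p: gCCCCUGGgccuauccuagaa
hsa-miR-181c-5p: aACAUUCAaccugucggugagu
hsa-let-7f-5p: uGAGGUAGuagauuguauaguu
The miR-301b-3p sequence lies at chr22:21653025-21653047 on the plus strand, miR-331-3p at chr12:95308480-95308500 on the plus strand and miR-181c-5p at chr19:13874725-13874746 on the plus strand. The let-7f-5p sequence is encoded at chr9:94176353-94176374 on the plus strand and at chrX:53557246-53557267 on the minus strand.

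The first bases of the transcripts are shown because the TOP tract is the feature that ribosomal protein mRNAs are best known to share. Each line gives the 15 bases before and the 15 bases from a RefSeq start (GRCh38.p14), with the tract in capitals.
RPLP0: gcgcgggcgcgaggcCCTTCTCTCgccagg
RPS14: ccgccccctcccactCTCTCTTTCCggtgt
RPS12: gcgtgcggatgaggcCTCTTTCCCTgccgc
RPS19: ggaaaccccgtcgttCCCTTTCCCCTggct
RPL10: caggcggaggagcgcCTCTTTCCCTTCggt
RPL11: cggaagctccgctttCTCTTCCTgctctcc
RPL22: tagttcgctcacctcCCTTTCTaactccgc
RPS28: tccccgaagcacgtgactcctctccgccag
These windows are chr12:120201097-120201126 (minus strand) for RPLP0, chr5:150449725-150449754 (minus) for RPS14, chr6:132814554-132814583 (plus) for RPS12, chr19:41860240-41860269 (plus) for RPS19, chrX:154398362-154398391 (plus) for RPL10, chr1:23691791-23691820 (plus) for RPL11, chr1:6199581-6199610 (minus) for RPL22 and chr19:8321481-8321510 (plus) for RPS28. A tract was searched on the gene's strand as a C at the start base followed by at least 4 further C or T bases. It was found at a listed start of 44 of the 58 members in the promoter table (75.9%), against 713 of 10653 other tested genes (6.69%) and 4.07% of all 35116 promoters. The letters at the listed start of RPS28 hold no such tract.

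The libraries held 31379962 to 50526442 counts (median 39878595). The 7 luminal epithelial markers, with ESR1, GATA3, FOXA1 and the luminal keratins among them, summed to 8128 to 13460 CPM, while 3 leukocyte markers summed to at most 2.96 CPM, 2 endothelial markers to at most 0.119 CPM and 3 basal markers to at most 8.27 CPM. Fibroblast markers summed to 47.6 to 81.2 CPM, from 1 of 3 genes. In bulk RNA, fewer cells of one type and less RNA per cell cannot be told apart. The Y537S mimic control of clone 1 stood apart at RPS18, a small subunit protein gene, with 29 counts (0.749 CPM), against up to 7809 counts elsewhere. Processed pseudogenes and near-identical copies of ribosomal protein genes are numerous, and how the authors counted reads that map to several places is not given in the sources used here, so the level of any single member is uncertain.

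The members are among the most abundant mRNAs of the cell. They summed to 2.47 to 4.60% of the counts in genes past the filter (median 2.94%). Without length correction RPL8 had the highest mean (1280 CPM), followed by RPLP0 (1202 CPM), the base of the ribosomal stalk, and RPS3 (1003 CPM). Per kilobase of transcript, RPS24 (1780 CPM per kb), RPL19 (1236) and RPL8 (1203) were highest, and RPL39L (32.1), RPS10 (38.3) and RPL14 (49.2) were lowest. The low place of RPL14 depends on an annotated transcript of 7136 bases, and which transcript the cells use was not examined. The median over the members was 364 CPM per kb. At the minimum of 10 CPM, RPS10 (22.4 CPM) and RPL39L (23.2 CPM) were just inside, and RPL17 (7.41 CPM) and RPS26 (6.0 CPM) just outside. RPL36A (3.07 CPM), RPL10L (0.29 CPM), RPL3L (0.034 CPM) and RPL21 (0.017 CPM) were also below it.

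Most members varied little. The SD of log2 CPM over the 24 libraries was under 0.3 in 54 of 73 members (median 0.256). It was lowest for RPL11 (0.131), RPL22 (0.132) and RPL7 (0.15). It was highest for RPS18 (1.48), RPL39L (0.73), RPL10 (0.67), RPL41 (0.46) and RPS29 (0.42). Libraries of RPL39L and RPL10 separated by genotype, whereas RPS18 was set by single libraries.

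**Figure D1:**
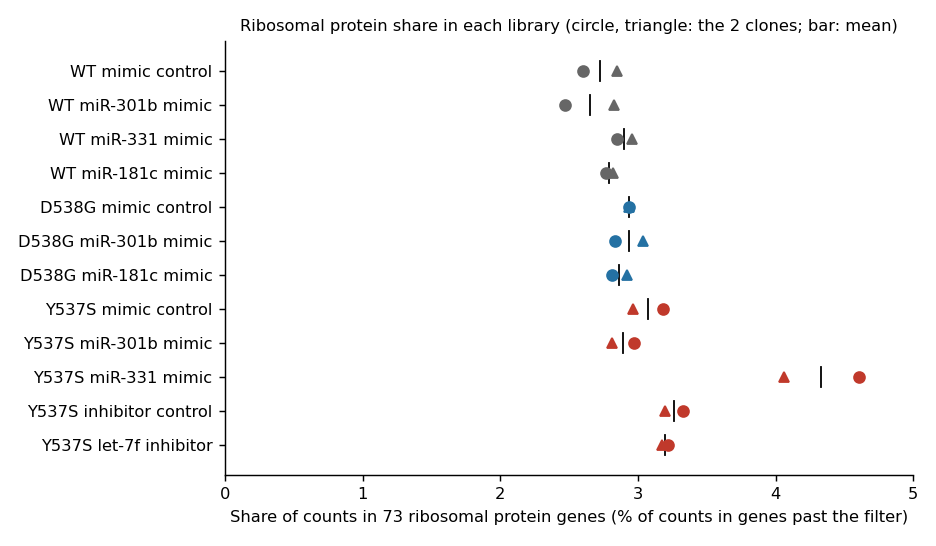
Share of counts held by the 73 ribosomal protein genes in each library (horizontal axis, percent of counts in genes past the filter), by genotype and treatment. Circles are D1, A5 and clone 1, triangles D4, C2 and clone 2, and vertical bars the mean of both. The Y537S libraries given the miR-331 mimic lie at 4.60% and 4.06%, and the other 22 libraries between 2.47% and 3.32%.

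The first question was whether the levels of these genes differed between the genotypes, in cells given the mimic negative control. Each genotype was present only as its own clonal lines, so the comparison cannot separate the mutation from differences between clones. What part each has was not tested. Libraries of a genotype under several treatments are repeats of the same clones and not further replicates of the genotype. Y537S cells had higher levels of 14 members and a lower level of 1, led by RPL39L and RPL10, and D538G cells had higher levels of 17 and lower levels of 3, led by RPL39L, RPL35 and RPL4. Over all genes 29% were called in Y537S (16.3% higher) and 38.9% in D538G (20.4% higher). The family as a whole moved by small amounts, mostly upward. The value was positive in 62 of 73 members in Y537S (49.8% of all genes) and in 53 in D538G (49.9%). The median log2 fold change was 0.16 for Y537S and 0.09 for D538G, against about 0 over all genes. Over 10 other fits of these controls, those without 1 library among them, the medians were 0.08 to 0.22 in Y537S and 0.02 to 0.16 in D538G. In the mimic control the members' share of counts was 2.6% and 2.85% in WT, 3.18% and 2.97% in Y537S and 2.94% in both D538G libraries.

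RPL39L, a paralog of RPL39 best known from the testis, had the largest difference in both mutants. Its level over the 8 WT libraries was 9.46 to 11.8 CPM (median 10.8). Over the 10 Y537S libraries it was 22.8 to 46.7 CPM (median 28.7), and over the 6 D538G libraries 23.9 to 29 CPM (median 28.1). Every mutant library was above every WT library, while the ranges of the mutants overlapped. These ranges are over repeated libraries of the same clones. In the mimic controls RPL39L was 3.19-fold higher in Y537S (log2 1.67, SE 0.15, edgeR quasi-likelihood adjusted p = 0.000382) and 2.89-fold higher in D538G (log2 1.53, SE 0.12, edgeR adjusted p = 2.88e-05). RPL39 itself did not pass the test, with log2 fold changes of 0.02 (SE 0.19) in Y537S and -0.26 (SE 0.15) in D538G. Per kilobase RPL39 averaged 209 CPM per kb, above the 32.1 of RPL39L.

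RPL10, which sits near the peptidyl transferase centre and is needed for subunit joining, separated Y537S from the other genotypes. It was 214 to 284 CPM in WT (median 246), 472 to 1024 CPM in Y537S (median 587) and 277 to 303 CPM in D538G (median 282). All Y537S libraries were above all WT libraries, whereas the D538G and WT ranges met. RPL10 was 2.34-fold higher in Y537S (log2 1.23, SE 0.10, edgeR adjusted p = 0.000272), and it also passed in D538G with a smaller difference (log2 0.25, SE 0.07, edgeR adjusted p = 0.019, and not called without the WT control D1). RPL10L, its paralog, had at most 0.669 CPM in any library.

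**Figure D2:**
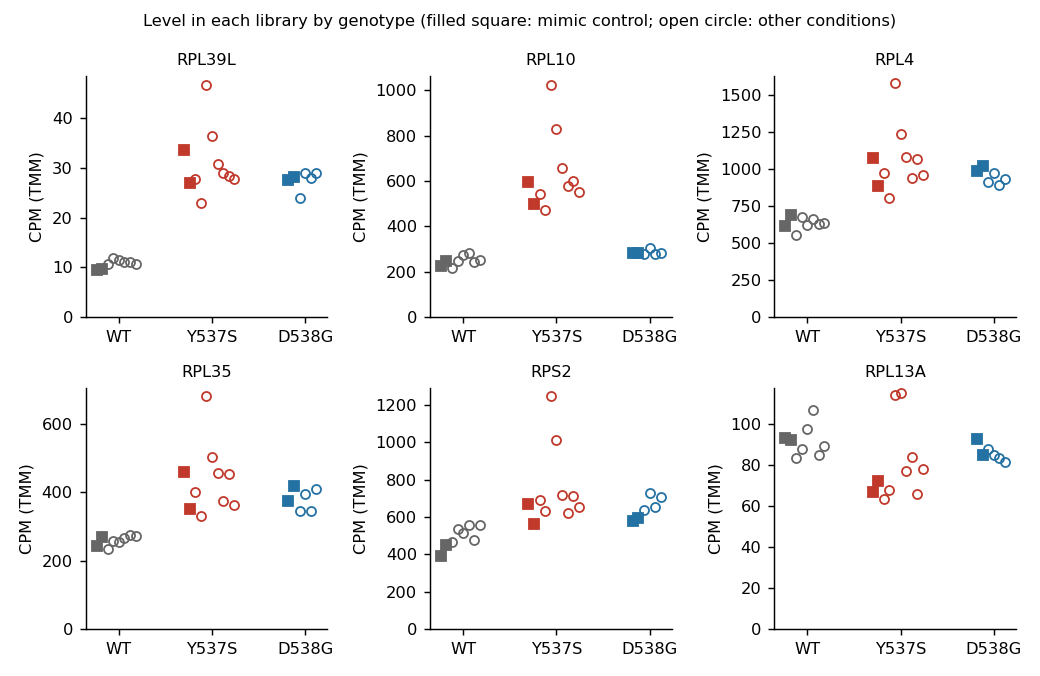
Levels (CPM, linear axes from 0) of RPL39L, RPL10, RPL4, RPL35, RPS2 and RPL13A in the 8 WT, 10 Y537S and 6 D538G libraries, 1 point per library, with filled squares for the mimic controls and open circles for the other conditions. RPL39L lies above the WT range in every mutant library and RPL10 in every Y537S library, while the levels of RPL13A overlap.

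Other large subunit genes that were higher in both mutants included RPL4 and RPL35. RPL4 was 552 to 691 CPM in WT, 804 to 1582 CPM in Y537S and 896 to 1020 CPM in D538G, so neither mutant overlapped WT. Its log2 difference was 0.60 in each mutant (SE 0.11 in Y537S and 0.07 in D538G, edgeR adjusted p = 0.0071 and 0.00022). RPL35, at the exit of the peptide tunnel, was higher by 0.68 in Y537S (SE 0.13) and by 0.62 in D538G (SE 0.08). Among small subunit genes, RPS2 was higher by 0.57 and 0.47 and RPSA, which also serves as a laminin receptor, by 0.66 and 0.56 on the log2 scale. Of the acidic stalk proteins RPLP1 was higher by 0.46 in Y537S (edgeR adjusted p = 0.015) and by 0.39 in D538G (edgeR adjusted p = 0.0021). RPLP2 did not pass the test, with 0.15 and 0.22, and neither did RPLP0, with 0.26 and 0.04. Without the WT control D1 the calls of RPL4, RPS2, RPSA and RPLP1 in Y537S were lost and that of RPL35 was not. These 2 comparisons share the WT control libraries, so their values are set side by side.

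Lower levels were fewer. RPL13A, known for its role outside the ribosome in interferon-dependent translational control, was lower in Y537S (log2 -0.40, SE 0.09, edgeR adjusted p = 0.015). It was 66.7 and 72.4 CPM in the Y537S controls against 93.2 and 92.2 CPM in the WT controls, and did not pass when D1 or D4 of the WT controls was left out. In D538G cells RPL13 (log2 -0.40, SE 0.08), RPL6 (-0.32, SE 0.07) and RPL10A (-0.22, SE 0.07) were lower, the last not called without the D538G control C2 or the WT control D4. RPL13 was 601 and 598 CPM in the D538G controls against 717 and 856 CPM in WT. RPS6, the S6 kinase substrate, and RPL3, a core protein of the large subunit, passed in neither mutant, with values of 0.10 and -0.08 for RPS6 and -0.12 and -0.15 for RPL3. RPL5 and RPL11, the MDM2-binding proteins, also did not pass, with values between -0.03 and 0.13.

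The 15 members called in Y537S are 20.5% of the members, and the 20 called in D538G are 27.4%. Neither share of calls exceeded the background, and the shares called higher were near it. With both genotypes given the miR-301b mimic, 10 members passed in Y537S (20.4% of all genes) and 19 in D538G (31.4%), and with both given the miR-181c mimic 15 passed in D538G (34.9%). Every library of Y537S lay above every WT library for 6 members, namely RPL10, RPL35, RPL39L, RPL4, RPL7A and RPS2, where 10.7% of all genes did so, and below for none (8% of all genes). In D538G this held for 11 members above WT (14.8% of all genes) and none below (11.5%). The count for Y537S changed when single libraries were left out. The share of all genes called in such fits is not given, so that change is not read as a result about the members. With any 1 library left out, the log2 difference was 1.52 to 1.82 for RPL39L and 1.11 to 1.34 for RPL10. RPL41, the smallest ribosomal protein, had the largest rise among the called members after RPL39L and RPL10 in Y537S (log2 0.72, edgeR adjusted p = 0.0497). It did not pass with DESeq2, nor without the Y537S control of clone 2, where its value was 0.28, and its range over all Y537S libraries overlapped that of WT.

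The second question was what the miR-331-3p mimic did to these genes. In Y537S cells 60 of 73 members rose and none fell, with members of both subunits among those that rose. The median log2 fold change of the members was 0.63, or 1.55-fold, against about 0 over all genes, and the quartiles were 0.51 and 0.89. The value was positive in 72 of 73 members, and 70 were higher in both clones (41.8% of all genes were). The 60 rises are 82.2% of the members, where 33% of all genes were called and 17.2% were called higher. The members' share of counts was 4.60% and 4.06% with the mimic in clone 1 and clone 2, 3.18% and 2.97% with the mimic control, and at most 3.32% in any of the other 22 libraries.

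**Figure D3:**
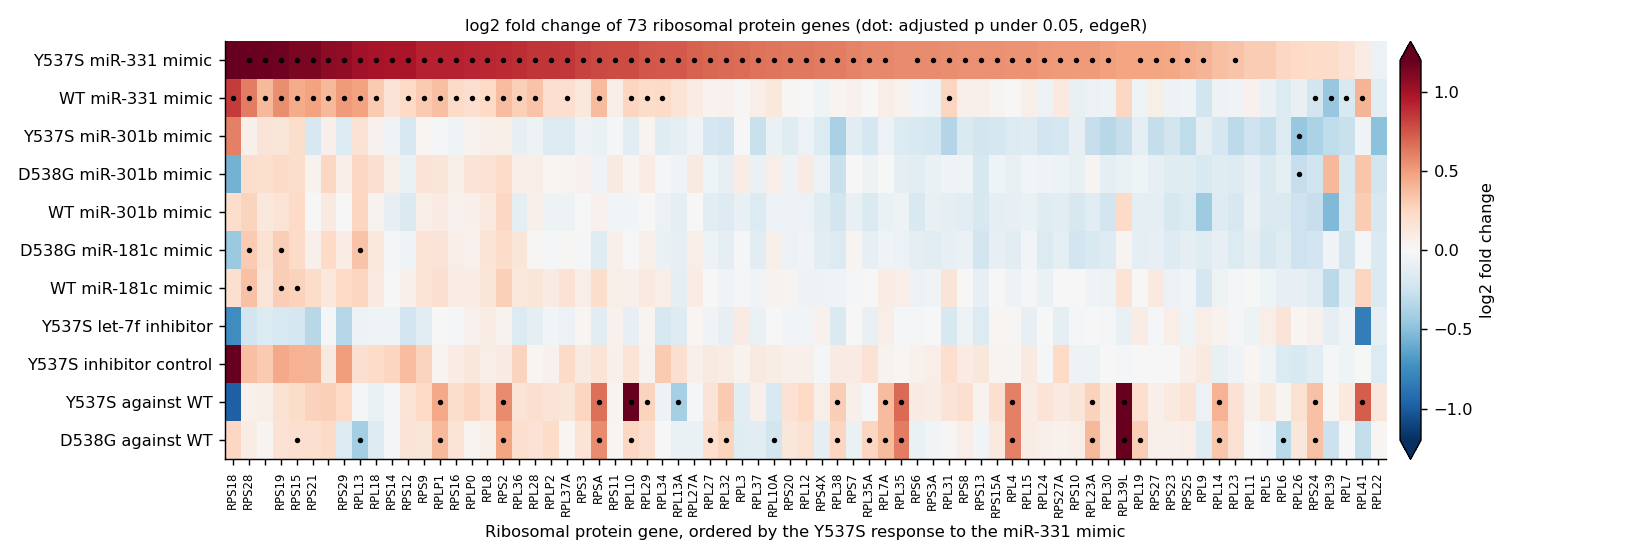
Log2 fold change (color scale, red higher and blue lower) of each of the 73 members (columns, ordered by the Y537S response to miR-331) in 11 comparisons (rows), not every column being named, with a dot where the edgeR adjusted p was under 0.05. The Y537S miR-331 row is red in all but 1 column and carries 60 dots, while the medians of the other rows lie between -0.16 and 0.16.

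Small subunit genes had the higher median. It was 0.79 with 27 of 29 called, against 0.59 with 33 of 44 called for the large subunit. RPS28 went from 96.7 and 83.1 CPM in the controls of clone 1 and clone 2 to 224 and 180 CPM with the mimic. RPS19, mutated in Diamond-Blackfan anaemia, went from 271 and 222 CPM to 610 and 487 CPM. Both treated libraries were above both controls for both genes. The log2 fold changes were 1.18 for RPS28 (SE 0.14, edgeR adjusted p = 0.0067), among the largest of the called members, and 1.17 for RPS19 (SE 0.15, edgeR adjusted p = 0.0068).

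The marker genes of the family and the stalk proteins rose with them. RPLP0 was 1219 and 1104 CPM in the controls and 2343 and 1971 CPM with the mimic (log2 0.91, SE 0.11, edgeR adjusted p = 0.0066). RPS6 was 710 and 672 CPM in the controls and 1096 and 930 CPM with the mimic (log2 0.57, SE 0.10, edgeR adjusted p = 0.013). RPL3 was 887 and 792 CPM in the controls and 1393 and 1242 CPM with the mimic (log2 0.67, SE 0.10, edgeR adjusted p = 0.0083). None of these ranges overlapped. The stalk partners of RPLP0 moved by a like amount, RPLP1 by 0.92 (SE 0.15) and RPLP2 by 0.86 (SE 0.14).

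The 13 members that did not pass were RPL5, RPL6, RPL7, RPL11, RPL14, RPL22, RPL26, RPL35, RPL39, RPL39L, RPL41, RPS18 and RPS24. Both MDM2-binding proteins are among them, each with a log2 fold change of 0.30 (SE 0.10, edgeR adjusted p = 0.061 for RPL5 and 0.064 for RPL11). RPL22, known for roles in lymphocyte development outside the ribosome, was the single member below 0 (-0.07, SE 0.11), with 178 and 200 CPM in the controls and 184 and 173 CPM with the mimic. RPS18 was 0.749 and 64.0 CPM in the controls and 148 and 190 CPM with the mimic (log2 2.39, SE 1.44, edgeR adjusted p = 0.25). Without the control of clone 1 its log2 fold change was 1.41 (SE 0.21, edgeR adjusted p = 0.0016).

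The median rise in Y537S cells was 0.53 to 0.77 over the 12 other fits that were tried, those without 1 library among them. With the clone as a block 70 members were called (60.7% of all genes). DESeq2 called 63, where the share of all genes is not given. The rise was not limited to ribosomal protein genes. Of genes outside the family, 1038 shorter than 1000 bases had a median of 0.29, 1481 in the top decile of expression had 0.19, and the 60 that were both had 0.55. What part transcript length and abundance have in the members' rise was not tested.

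In WT cells the same mimic gave a smaller response. There, 26 members rose and 3 fell, with a median of 0.07, against 24.8% of all genes called and 14.2% called higher. The members' share of counts was 2.85% and 2.96% with the mimic against 2.6% and 2.85% in the controls, so the ranges overlapped. RPS28 was 83.0 and 91.9 CPM in the controls and 130 and 134 CPM with the mimic (log2 0.61, SE 0.07, edgeR adjusted p = 0.00029). RPS19 was 208 and 230 CPM in the controls and 306 and 329 CPM with the mimic (log2 0.56, SE 0.07, edgeR adjusted p = 0.00037). RPS18 rose most, by 0.84 (SE 0.08, edgeR adjusted p = 0.00011), from 68.7 and 61.5 CPM to 119 and 109 CPM. For each of these genes both treated libraries were above both controls.

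The 3 members that fell in WT cells were RPL39 (log2 -0.45, SE 0.13), RPS24 (-0.22, SE 0.06) and RPL7 (-0.18, SE 0.06, and 0.023 after the GC correction). RPL39 was 106 and 73.4 CPM in the controls and 62.1 and 67.1 CPM with the mimic, with the wider spread in the controls, and did not pass without the control of D1 (-0.16). None of the 3 falls was called after the GC correction, with all conditions of the genotype in 1 fit or without the treated library of D1. RPLP0 rose by 0.20 (SE 0.06, edgeR adjusted p = 0.028), from 940.5 and 1023 CPM to 1092 and 1122 CPM, a call lost without the control of D1 or either treated library. RPS6 (-0.04, SE 0.07) and RPL3 (0.02, SE 0.08) did not pass. The WT count rested on single libraries, with 18 members called without the control of D1 and 15 without either treated library. Of the members called higher, 24 were called in both genotypes, which is 40% of the 60 in Y537S and 92.3% of the 26 in WT. The 92.3% stands beside 82.2% of all members called higher in Y537S cells, and the overlap over all genes was not counted. The Y537S and WT comparisons share no library.

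The difference between the responses was tested as an interaction over the 8 libraries. It was larger in Y537S for 72 of 73 members, with a median difference of 0.55 on the log2 scale, and passed the test for 32, all with the larger rise in Y537S. Over all genes 9.94% passed, 3.47% with the higher value in Y537S. Of the 32, 19 belong to the large and 13 to the small subunit. The difference was 0.81 for RPS14 (SE 0.13, edgeR adjusted p = 0.0081) and 0.72 for RPS12 (SE 0.15, edgeR adjusted p = 0.025). RPS14, whose loss is known from the 5q- syndrome, was 542 and 521 CPM in the Y537S controls and 1115 and 962 CPM with the mimic, but 526 and 561 CPM in the WT controls and 570 and 624 CPM with the mimic. The difference was also called for RPLP0 (0.70), RPLP2 (0.65), RPL3 (0.63) and RPS6 (0.59). RPL41 alone had the opposite sign (-0.33, SE 0.31) and did not pass.

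The count of 32 depended on the libraries. It was 8 without the WT control D1, 0 without the WT control D4, 0 and 1 without the WT mimic libraries D1 and D4, 17 and 7 without the Y537S controls of clone 1 and clone 2, and 11 and 61 without the Y537S mimic libraries of clone 1 and clone 2. With the clone as a block 70 members passed (34.1% of all genes), and with a correction for GC content 14. With both genotypes given the miR-331 mimic, 71 members were higher in Y537S than in WT, where 49.6% of all genes differed. RPL13A, lower in Y537S than in WT in the controls, had a value of 0.15 there.

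**Figure D4:**
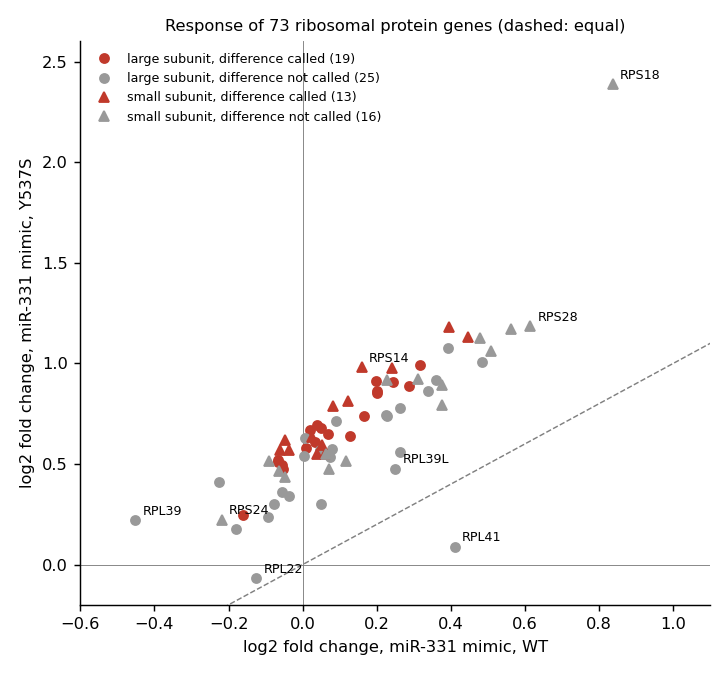
Log2 fold change of the 73 members after the miR-331 mimic in WT cells (horizontal axis) and Y537S cells (vertical axis), circles for the large and triangles for the small subunit, with the dashed line marking equal change. Of the points 72 lie above the line, and the 32 in red passed the test of the difference.

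The miR-301b-3p mimic was given to all 3 genotypes and gave small values in the members. In Y537S cells 59 of 73 members had a negative log2 fold change (median -0.16), and 1 passed the test, RPL26, a large subunit protein that also binds p53 mRNA. RPL26 was 382 and 367 CPM in the controls and 289 and 265.4 CPM with the mimic (log2 -0.46, SE 0.08, edgeR adjusted p = 0.047). It fell in D538G cells too, again as the single called member, from 357 and 379 CPM to 299 and 310 CPM (log2 -0.28, SE 0.08, edgeR adjusted p = 0.046). In WT cells no member passed with edgeR, 14 had an unadjusted p under 0.05 and DESeq2 called 2. RPL26 had a value of -0.25 there (SE 0.08). The background was 3.57% of all genes in Y537S, 11.8% in D538G and 8.5% in WT cells. Both calls of RPL26 were lost after correction for GC content and without any 1 of the 4 libraries of its comparison.

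Deviations of the clones in treated and control libraries correlated over the members at 0.757 for Y537S and 0.261 for WT, but at -0.563 for D538G, where the members' deviations were thus not shared. With the clone as a block 46 members were called in Y537S cells (5 higher, 41 lower), against 38.4% of all genes. RPL22 (-0.49) and RPL38 (-0.39) were lower beside RPL26, and RPS15 (0.21) was higher, though it was below 0 after the GC correction. RPS18 had the top blocked value (1.54), which rested on the control of clone 1 and was -0.37 without it. In D538G cells the blocked fit called 22 (12 higher, 10 lower), against 33.3% of all genes, with RPL39 (0.37) and RPL13 (0.25) among the highest and RPL26 (-0.28), RPL38 (-0.27) and RPS24 (-0.23) lowest. In WT cells it called 32 (8 higher, 24 lower), against 28.2%, with RPL41 (0.31), RPL13 (0.26) and RPS28 (0.26) highest and RPL39 (-0.52), RPL9 (-0.42) and RPS24 (-0.28) lowest. RPL26, RPL38 and RPS24 had negative values in each genotype. The interaction test of the response to miR-301b between Y537S and WT passed for 0 members (edgeR, 2 with an unadjusted p under 0.05, DESeq2 0, 0.00632% of all genes). Between D538G and WT it also passed for 0 (edgeR, 1 with an unadjusted p under 0.05, DESeq2 0, 0.0064% of all genes), where the blocked fit called RPL39 (difference 0.89, edgeR adjusted p = 0.046).

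The miR-181c-5p mimic raised a few members in both genotypes that received it. In D538G cells RPL13, RPS28 and RPS19 rose, and none of these calls held after the GC correction. RPL13 was 601 and 598 CPM in the controls and 752 and 762 CPM with the mimic (log2 0.34, SE 0.06, edgeR adjusted p = 0.011). RPS28 rose by 0.32 (SE 0.08, edgeR adjusted p = 0.030), from 95.5 and 92.3 CPM to 115 and 118 CPM, and RPS19 rose by 0.29 (SE 0.07, edgeR adjusted p = 0.028), from 251 and 246 CPM to 295 and 312 CPM. In WT cells RPS28 (0.35, SE 0.09, edgeR adjusted p = 0.027), RPS19 (0.29, SE 0.08, edgeR adjusted p = 0.033) and RPS15 (0.28, SE 0.07, edgeR adjusted p = 0.026) rose. Treated and control libraries of these genes did not overlap. The 3 members called in each genotype are 4.11%, against 9.52% of all genes in D538G (5.58% higher) and 16.4% in WT (8.1% higher), so the counts did not exceed the background.

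The median over all members was -0.07 in D538G and 0.01 in WT cells. With the clone as a block 28 members were called in D538G (11 higher, 17 lower, 29.3% of all genes) and 13 in WT (11 higher, 2 lower, 27.9% of all genes). No member was called in D538G without the treated library of C2. In WT cells 0 were called without the control of D1, 1 without the control of D4, 7 without the treated library of D1 and 0 without that of D4. The interaction test between the D538G and WT responses passed for 0 members (edgeR, 4 with an unadjusted p under 0.05, DESeq2 0, 0.00646% of all genes).

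The let-7f-5p inhibitor was compared with the inhibitor control in Y537S cells. No member passed with edgeR, where 0% of all genes did, 7 had an unadjusted p under 0.05 and DESeq2 called 1. The median was -0.03. With the clone as a block 23 members were called (3 higher, 20 lower), against 11.2% of all genes. RPL41 was 72.2 and 62.7 CPM in the controls and 39.6 and 36.1 CPM with the inhibitor (blocked log2 -0.83, edgeR adjusted p = 3.46e-08), with no overlap. That blocked p-value rests mostly on the spread shared over all genes, and the unblocked fit did not call RPL41. Among blocked falls RPS18 (-0.82) and RPS29 (-0.33) followed, and the rises of RPL6 (0.15), RPL3 (0.097) and RPL19 (0.091) were small.

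The 2 negative controls of Y537S cells were also set against each other, as a measure of what transfection with different control oligonucleotides gives. No member passed with edgeR (0% of all genes, 15 members with an unadjusted p under 0.05, DESeq2 0), and the median was 0.08. With the clone as a block, although the members' clone deviations correlated at only 0.0997, 28 passed, 24 of them higher with the inhibitor control, against 16.7% of all genes. RPS29 (0.50), RPS19 (0.46) and RPS18 (2.43) were highest and RPL26 (-0.18), RPL6 (-0.16) and RPL22 (-0.16) lowest. RPS18 rested on the same low library, and without it its unblocked value went from 1.70 to 0.72. Blocked calls were thus also found between controls that add no miRNA.

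What the members share beyond their function was examined for a relation with these values. Their transcripts are short, with a median of 869 bases against 2651 over all matched genes, and their 3′ untranslated regions have a median of 136 bases against 1091. Sites complementary to the seed were present in a smaller share of members than of all genes tested. The miR-331 site CCAGGGG was present in 6 of 73 members (8.22%, against 15.5% of genes tested), the miR-301b site TTGCACT in 3 (4.11%, against 16.1%), the miR-181c site TGAATGT in 8 (11%, against 21.2%) and the let-7f site CTACCTC in 5 (6.85%, against 10.9%). Sites were searched on the transcribed strand of canonical transcripts. The miR-331 sites of RPS19, RPS28 and RPL13 are shown because these genes were among those that rose with the mimic, with the site in capitals (GRCh37).
RPS19: ggaaggacCCAGGGGcccttgtg
RPS28: tctgggagCCAGGGGgtgactcg
RPL13: tcctcctgCCAGGGGatttgggg
They lie in the 3′ untranslated regions at chr19:42375801-42375823, chr19:8387782-8387804 and chr16:89629555-89629577, all on the plus strand. The annotated regions are long, with the site at base 364 of 1548 in RPS19, 651 of 1085 in RPS28 and 113 of 1500 in RPL13. Whether the mRNAs of these cells extend to the sites was not tested. The 6 members with a site were RPL13, RPL13A, RPL14, RPS19, RPS23 and RPS28. Their median after the miR-331 mimic was 0.87 in Y537S cells, with 5 called higher, and 0.32 in WT cells, against 0.62 and 0.07 for the 67 members without a site. Members with a site did not have the lower median. The same 6 members also had the higher median after mimics with another seed. It was 0.095 against -0.066 after miR-181c in D538G cells, and -0.02 against -0.16 after miR-301b in Y537S cells. Of the members with a miR-331 site, RPL14 and RPS28 also hold a miR-181c site. What part the sites or GC content have in these contrasts was not tested.

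In Y537S cells given miR-331 the median was 0.67 for the 44 members with a TOP tract at a listed start (35 called) and 0.63 for the 14 without (13 called). In WT cells it was 0.14 with a tract (21 called) and 0.04 without (3 called), a difference that was not tested. In Y537S cells RPS28, with no tract at its listed start, and RPS19, with one, had nearly the same rise, and RPL22 and RPL11, both with a tract, did not pass. A run of pyrimidines that begins after the listed start base was not counted, so members without a tract may still have TOP mRNAs. The split therefore cannot decide whether TOP mRNAs responded differently.

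GC content of the transcript moved with the values in all mimic comparisons. Spearman's rho between GC content and log2 fold change across the 73 members, which share libraries and are not independent, was 0.61 for miR-331 in Y537S, 0.57 for miR-331 in WT, 0.69, 0.58 and 0.64 for miR-301b in Y537S, D538G and WT, and 0.61 and 0.58 for miR-181c in D538G and WT. It was -0.05 for the let-7f inhibitor and 0.26 between the 2 negative controls. In genes outside the family it was 0.50 to 0.62 for the mimics, 0.22 for the let-7f inhibitor and 0.30 between the negative controls. After miR-331 in Y537S cells the 18 members of lowest GC content had a median of 0.49 and the 18 of highest GC content 0.90. In WT cells the same groups had -0.05 and 0.31, and after miR-301b in Y537S cells they had -0.22 and 0.04. RPS28, RPS19 and RPL13, called after several mimics, have GC contents above most members, while RPL26, RPS24 and RPL39 lie in the low range. The part of GC content in these changes was not tested, and counts after a GC correction are given with the other settings.

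**Figure D5:**
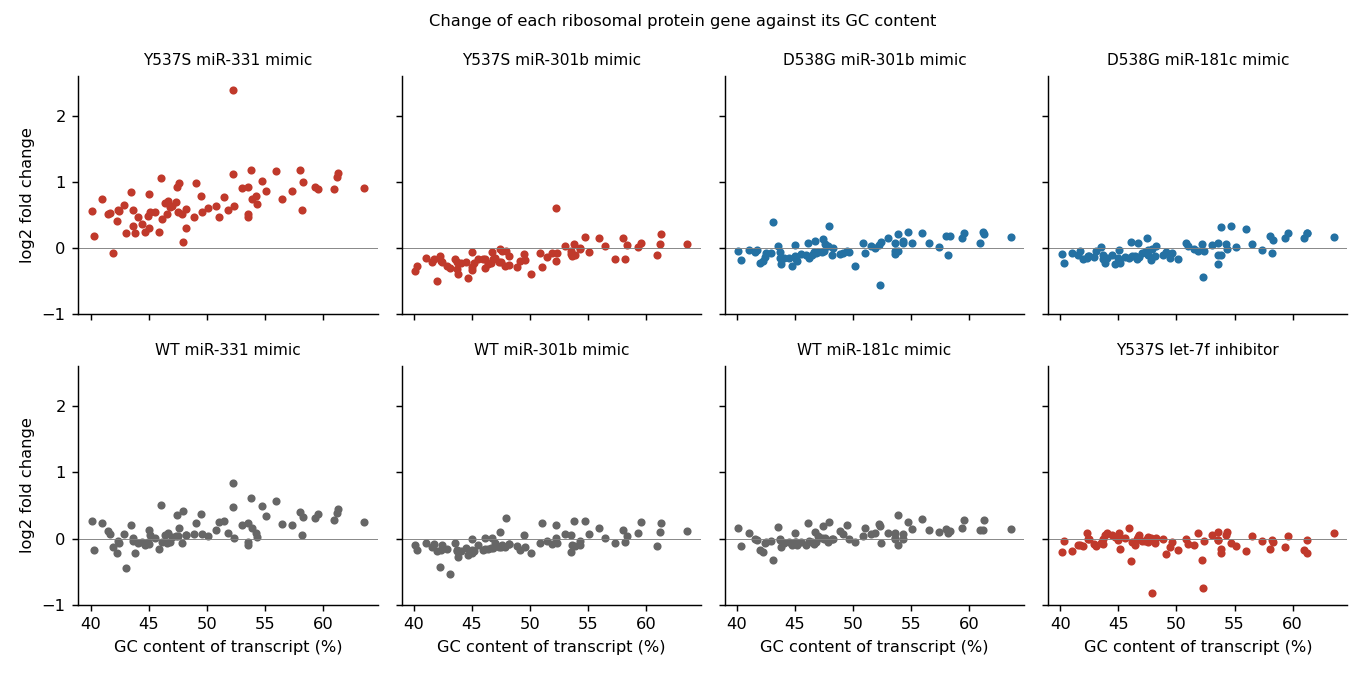
Log2 fold change of the 73 members (vertical axis) against the GC content of their transcripts (percent, horizontal axis) in the 7 mimic comparisons and after the let-7f inhibitor, 1 point per gene. Values are higher at high GC content in each mimic panel and not in the let-7f panel, and after miR-331 in Y537S cells 72 points lie above 0.

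Genes with related roles were followed on fixed lists, where 33% of all genes were called after miR-331 in Y537S and 24.8% in WT cells. Of 8 tested related ribosomal proteins outside the symbol rule, 3 rose with miR-331 in Y537S cells and none fell, among them FAU (0.92), which encodes a ribosomal protein fused to a ubiquitin-like protein, and GNB2L1 (0.87), which encodes RACK1 of the small subunit. Of 18 translation factors and other genes with TOP mRNAs 8 rose and 1 fell, with EEF2 (1.00) and EEF1G (0.82) as the elongation factors of smallest p. These genes are made from mRNAs of the same kind as the members, and their median was 0.28. In WT cells 2 related proteins rose, and of the translation factors 2 rose and 4 fell. The Y537S response exceeded that of WT for FAU (0.51), GNB2L1 (0.67), EEF2 (0.66) and EEF1G (0.65).

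Genes of ribosome biogenesis, on a list that also holds their activator MYC, rose and fell in equal number in Y537S cells. Of 38 ribosome biogenesis genes, 9 rose and 9 fell with miR-331 in Y537S cells (median 0.02, against 33% of all genes called), with NHP2 (0.75) of the H/ACA complex and TAF1D (-1.25) of the RNA polymerase I factor SL1 as examples. In WT cells 4 rose and 9 fell (24.8% of all genes), among them the helicase DDX21 (-0.59). Of 9 tested snoRNA host genes 1 rose and 3 fell in Y537S cells, with SNHG1 (-1.93) and SNHG12 (-2.09) lower. Of 13 mTORC1 genes 5 rose and 2 fell in Y537S, with RPTOR (1.28) and MLST8 (1.13) higher, and 6 rose and 2 fell in WT, with RPTOR (0.63) higher. Of 8 genes of ribosomal stress and p53, 4 rose and 3 fell in Y537S, with CDKN1A (1.2) and SESN2 (0.88) higher, and 3 rose and 1 fell in WT, with SESN2 (0.56) higher and MDM2 (-0.39) lower.

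Between genotypes the biogenesis genes had higher medians than the ribosomal proteins, a contrast that was not tested. In Y537S controls 14 of 38 biogenesis genes were higher and none lower (median 0.25, against 29% of all genes called). Among them were DKC1 (1.51), the pseudouridine synthase, and MYC (1.36), an activator on the same list. In D538G 20 were higher and 2 lower (median 0.29, against 38.9% of all genes), with MYC (1.36) and NOP56 (0.69) higher. With the miR-301b mimic 5 biogenesis genes fell and none rose in Y537S cells (median -0.29, against 3.57% of all genes called), with DKC1 (-0.72) and NOLC1 (-0.71) lower. In D538G cells 10 fell and 1 rose (11.8% of all genes), and in WT cells 4 fell and 1 rose (8.5%). Among paralogs of the members, RPS27L was higher in both mutants (0.67 in Y537S and 0.78 in D538G), while RPS27 had a value of 0.06 in each. RPL36AL was lower (-0.42) and RPL26L1 higher (0.32, edgeR adjusted p = 0.036) in D538G, and RPL22L1 and RPL7L1 did not pass in either genotype comparison.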

How the data were processed

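RNA-seq libraries were prepared with a stranded poly-A kit and sequenced on an Illumina NovaSeq. Reads were aligned by HISAT2 to hg19, and Subread featureCounts assigned them to UCSC Known Genes. The authors deposited the raw counts without normalization. Tool versions, the strand setting and the treatment of multi-mapping reads are not given in the sources used here. No column of another sample was found (0 unused columns). Headings of the WT and D538G tables name clones, which were joined to the labels by condition only. The members, gene lists and tests were chosen with earlier results of these data known.

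Genes passing filterByExpr were tested in R 4.3.3 with edgeR 4.0.16 (TMM, quasi-likelihood F test, two-sided, Benjamini-Hochberg over all genes tested) and called at an adjusted p under 0.05. Each treatment was tested against its control in the same genotype, each mutant against WT in the mimic control, and mutant against WT responses as an interaction. The SE is the log2 fold change divided by the square root of F. CPM used TMM library sizes, except for the minimum mean of 10 CPM and the means beside it, and log2 CPM a prior count of 2. The fit was tested on simulated data with known changes. Alternatives were DESeq2 1.42.0, its size factors, TMM without the members, no filter, all conditions of a genotype in 1 fit, a GC correction (lowess span 0.3), the clone as a block, the block with the GC correction, both genotypes given a mimic, and leaving out each library. The block was taken as a pairing because same-named libraries come from the same clone. A blocked fit of a treatment leaves little spread of its own per gene, so its p-values rest mostly on the spread shared over all genes. Deviations of the clones in treated and control libraries correlated at 0.187 to 0.612 over all genes and at -0.563 to 0.757 over the members. The 2 libraries of a condition differed by more than counting noise in all conditions.

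Length, GC content and 3′ untranslated regions came from GENCODE v44 canonical transcripts lifted to GRCh37, and miRNA and promoter sequences from RefSeq. All 73 members had a length and GC content. RPL39L and 14 other members are without a promoter entry in the table used. Python 3.11.15, pandas 2.3.3, numpy 2.4.6 and scipy 1.17.1 were used. Genes named are RPLP0, RPS6, RPL3, RPLP1, RPLP2, RPL5, RPL11 and the paralog pairs. To these were added, per comparison, the 3 called members with the largest rise and fall whose clones moved in 1 direction (between genotypes, whose groups do not overlap), or those of the blocked fit where fewer than 3 were called. The 5 most and 3 least variable members, the 3 highest and lowest per length, those at the minimum and the 2 genes of smallest p per list were also named. Other members were named after their values were seen, among them RPS14, RPS2, RPSA and RPS24 beside results they are not ranked in. Some genes that the rule names are not reported here.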

Additional observations from a re-analysis of the deposited data

Results flagged for a closer look

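The response to the miR-331 mimic differed between Y537S and WT cells for 32 ribosomal protein genes by the interaction test of edgeR, each with the larger rise in Y537S cells. The difference on the log2 scale was 0.81 for RPS14, 0.72 for RPS12, 0.70 for RPLP0, 0.65 for RPLP2, 0.63 for RPL3 and 0.59 for RPS6. The sign was the same for 72 of 73 members. The count fell to 0 without the WT control D4 or the WT mimic library D1.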

How the results depend on the processing

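Of 120 counts of called members under settings that kept all libraries, or took both genotypes given a mimic, 73 were within 1.5 times the reported count and 47 were not. Without 1 library 45 of 76 were within it. The count for miR-331 in Y537S cells stayed within it in all (58 to 72 members over 8 alternatives, median 0.53 to 0.77 over 12). The cause was not tested for any change below, apart from fewer libraries where 1 was left out. A lone library is then assumed to vary like the others. Where no share of all genes is given for a setting, its count shows how the calls moved and is not a result about the members.

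With the replicate block (clone as a pairing), calls were 46 for Y537S miR-301b, 23 for let-7f, 22 for D538G miR-301b, 28 for D538G miR-181c, 32 for WT miR-301b, 13 for WT miR-181c, 28 for the inhibitor control, 1 for the D538G minus WT response to miR-301b and 70 for the Y537S minus WT response to miR-331. With the replicate block and GC correction these were 39, 28, 18, 20, 21, 19, 40, 1 and 69, and 51 for WT miR-331 and 1 for the Y537S minus WT response to miR-301b. The GC correction alone gave 0 for Y537S miR-301b, D538G miR-301b and D538G miR-181c, 1 for WT miR-301b, 19 for WT miR-331 and 14 for the miR-331 difference.

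DESeq2 gave 6 for Y537S miR-301b, 1 for let-7f, 5 for D538G miR-301b, 8 for D538G miR-181c, 2 for WT miR-301b and 61 for the miR-331 difference. Size factors gave 0 for Y537S miR-301b. Without the filter there were 2 for Y537S miR-301b, 8 for D538G miR-301b, 10 for D538G miR-181c, 9 for WT miR-301b, 8 for WT miR-181c, 32 for D538G against WT, 57 for the miR-331 difference, 2 for the D538G minus WT response to miR-301b and 1 for that to miR-181c. All conditions of a genotype in 1 fit gave 6 for Y537S miR-301b, 2 for D538G miR-301b, 16 for WT miR-331 and 56 for the miR-331 difference. Both genotypes given miR-331 gave 71 for Y537S against WT.

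Leaving out 1 library gave 0 to 1 for Y537S miR-301b, 46 to 66 for Y537S miR-331, 1 to 4 for D538G miR-301b, 0 to 4 for D538G miR-181c, 1 to 13 for WT miR-301b, 15 to 30 for WT miR-331, 0 to 7 for WT miR-181c, 0 to 1 for the inhibitor control, 3 to 38 for Y537S against WT, 14 to 26 for D538G against WT, 0 to 1 for the Y537S minus WT response to miR-301b and 0 to 61 for that to miR-331. The libraries behind the counts for miR-301b were the Y537S control of clone 1 and either treated library (0 each), the D538G control A5 (2) and treated libraries A5 (4) and C2 (2), and the WT controls D1 and D4 (1 each) and treated libraries D1 (4) and D4 (13).

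Of the values of named members, 688 kept their direction and side of the threshold, 113 lost the call, 85 gained it and 6 changed sign. Those that changed sign were RPS18 in Y537S miR-301b without the control of clone 1 (-0.37, against 6.06 without the control of clone 2), RPS15 (-0.0472 with the GC correction, -0.0444 with the block added) in Y537S miR-301b, RPL7 in WT miR-331 (0.023 and 0.0253) and RPL13A in Y537S against WT with both given miR-331 (0.15).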
